A study of Homo sapiens with 12 samples.

Results

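CHD1, CHD2, CHD3, CHD4, CHD6, CHD7, CHD8, CHD9, SMARCA1 and SMARCA5 encode the catalytic subunits of the CHD and ISWI chromatin remodellers, and their mRNAs were described across 4 states of a rhabdoid tumour cell line. The 10 genes were chosen by name and family, not by a measured value, from the 57820 gene identifiers of the deposited tables. Earlier results of these data were known at that choice. All 10 had enough counts to be tested, among 15750 genes that did. CHD5, a CHD gene outside the set, was also followed. The line, G401, is labelled as a rhabdoid tumour with the genotype SMARCB1(-/-), so all groups lack endogenous SMARCB1, which is part of the core of SWI/SNF (BAF) remodellers. Doxycycline induced either GFP, the control protein, or SMARCB1. Each state then received the solvent DMSO or dBRD9-A, a small molecule that degrades BRD9, a subunit found in the non-canonical BAF complex, for 24 hours. Each of the 4 groups had 3 libraries of polyadenylated RNA (n = 3 throughout). CHD7 had enough counts to be tested only through the SMARCB1 groups, as its GFP libraries held 1 to 10 counts. All libraries come from 1 cell line, and the labels give neither the length or dose of doxycycline nor the dose of dBRD9-A. The design asks what SMARCB1 and BRD9 loss do to transcription when SMARCB1 is absent or present.

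Chromatin remodellers use ATP to slide, space, exchange or evict nucleosomes, and each family is defined by its ATPase. CHD ATPases carry paired chromodomains in front of the motor. CHD1 and CHD2 act with elongating RNA polymerase, CHD3 and CHD4 are alternative ATPases of the deacetylase complex NuRD, and CHD6 to CHD9 form a group in which CHD7 acts at enhancers and is mutated in CHARGE syndrome and CHD8 is mutated in autism. SMARCA5 (SNF2H) and SMARCA1 (SNF2L) are the ISWI ATPases, which space nucleosomes into regular arrays. SWI/SNF, the family that rhabdoid tumours disrupt, is a separate one that opens nucleosomal DNA at enhancers and promoters.

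Because CHD1 and CHD8 were higher, and CHD3 and SMARCA1 lower, in SMARCB1 cells relative to the average gene, the DNA just upstream of a RefSeq start of each is shown. The stretches lie outside GENCODE 29 exons, are read 5′ to 3′ on the gene's strand (GRCh38.p14, as in RefSeq), and carry matches to any searched motif in capitals. They are chr5:98929008-98929170 for CHD1 (minus strand), chr14:21437309-21437525 for CHD8 (minus strand), chr17:7888539-7888788 for CHD3 (plus strand) and chrX:129523501-129523740 for SMARCA1 (minus strand). Those of CHD8 and CHD3 lie at a start inside the gene as annotated by GENCODE 29.
CHD1: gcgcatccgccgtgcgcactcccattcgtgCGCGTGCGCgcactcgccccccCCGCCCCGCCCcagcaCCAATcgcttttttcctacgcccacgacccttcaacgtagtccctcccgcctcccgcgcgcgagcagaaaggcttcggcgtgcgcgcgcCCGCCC
CHD8: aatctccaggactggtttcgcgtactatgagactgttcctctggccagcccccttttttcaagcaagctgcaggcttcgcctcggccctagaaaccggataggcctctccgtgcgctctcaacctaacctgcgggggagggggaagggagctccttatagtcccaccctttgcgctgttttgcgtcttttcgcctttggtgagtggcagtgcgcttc
CHD3: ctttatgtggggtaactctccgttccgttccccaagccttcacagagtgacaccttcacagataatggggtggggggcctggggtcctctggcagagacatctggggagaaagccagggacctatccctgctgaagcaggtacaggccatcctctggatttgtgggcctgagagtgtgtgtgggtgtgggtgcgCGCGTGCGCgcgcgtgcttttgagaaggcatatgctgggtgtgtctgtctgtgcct
SMARCA1: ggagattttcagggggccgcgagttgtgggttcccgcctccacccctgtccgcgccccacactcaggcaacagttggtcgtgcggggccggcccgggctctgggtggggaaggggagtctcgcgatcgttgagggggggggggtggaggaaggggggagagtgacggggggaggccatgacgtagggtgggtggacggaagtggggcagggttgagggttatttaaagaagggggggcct
Each motif was searched on both strands, and its share among the 35116 RefSeq windows of the 250 bases before a start is given. The CCAAT box, CCAAT, is in 32% of windows. The NRF1 motif was taken as GCGCANGCG and is in 6.56%. The cyclic AMP response element, TGACGTCA, is in 1.65%. The AP-1 motif was taken as TGANTCA and is in 6.57%. The TATA box, TATAAA, is in 10.7%. The GC box, GGGCGG, is in 42.6%. Over its whole 250-base window CHD1 held 1 NRF1 match, 1 CCAAT box and 4 GC boxes, which can overlap, and the stretch printed holds all but 1 GC box. The CHD8 window held 1 CCAAT box and 1 GC box, neither whole within the stretch printed. The CHD3 window held 1 NRF1 match and the SMARCA1 window none of the 6 motifs. CHD9, also lower, has windows at 4 starts, which are not printed. Of those windows, 1 held an NRF1 match, 2 held a CCAAT box and 2 held GC boxes. The CHD1 stretch was 73.0% G and C, SMARCA1 67.9%, CHD3 58.8% and CHD8 57.6%, beside a median of 58.0% over the windows. A match describes the letters alone, and no binding was measured. The RefSeq table held windows for 8 of the 10 members.

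Libraries held 34.97 to 58.54 megacounts (1e6 counts) on genes, and levels are counts per megacount of scaled library size (CPM), so that 3 counts correspond to 0.0516 to 0.0847 CPM. SMARCB1 checked the labels: it had 0 to 2 counts in the 6 GFP libraries, 1806 to 1911 CPM in SMARCB1 cells in DMSO and 1276 to 1327 CPM in SMARCB1 cells with dBRD9-A. In SMARCB1 cells its mRNA was thus lower with dBRD9-A (log2 fold change -0.52, edgeR adjusted p = 4.95e-08). Comparisons that use SMARCB1 cells with dBRD9-A carry this lower level, and its part in them was not tested. BRD9 mRNA lay between 37.2 and 50.4 CPM in all libraries, and BRD9 protein was not measured. Relative to the average gene, BRD9 mRNA was higher in SMARCB1 than in GFP cells, without overlap of libraries. Its log2 fold change was 0.29 in DMSO (edgeR adjusted p = 1.64e-05) and 0.21 with dBRD9-A (edgeR adjusted p = 0.000621). For dBRD9-A it was not called in GFP cells (0.10, edgeR adjusted p = 0.146) or SMARCB1 cells (0.02, edgeR adjusted p = 0.921). The mesenchymal marker VIM stood at 1256 to 1337 CPM in GFP and 2150 to 2400 CPM in SMARCB1 libraries. Of the markers of other cells, PTPRC and CD3E were at 0 counts in every library and ALB, VWF and EPCAM stayed under 1 CPM, with summed levels of 0.657 to 0.778 CPM (DMSO) and 0.327 to 0.606 CPM (dBRD9-A) in GFP cells and 0.580 to 0.894 CPM (DMSO) and 0.535 to 0.814 CPM (dBRD9-A) in SMARCB1 cells. Within them VWF was at 0 to 0.121 CPM in GFP and 0.516 to 0.860 CPM in SMARCB1 libraries, and EPCAM at 0.327 to 0.760 and 0 to 0.0698 CPM. Their part in the results was not tested. Replicates differed by more than sampling noise (chi-square per degree of freedom 2.95 to 25.6), so each was kept as a sample. Replicate 3 of SMARCB1 cells in DMSO had the highest level of its group for 10 of the 10 members, while 32.3% of all tested genes were highest there. The members' values for SMARCB1 against GFP in DMSO are therefore also given without it, as are the results on partner genes and on dBRD9-A in SMARCB1 cells that rest on it.

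The family was dominated by the ATPases of NuRD and ISWI. Levels of different genes were compared as CPM per kilobase of the principal GENCODE 29 transcript. In GFP cells in DMSO, CHD4 stood first at 89.0 ± 2.57 CPM per kilobase (SD, n = 3), followed by SMARCA5 at 40.6 ± 1.12 and SMARCA1 at 20.1 ± 0.42. CHD8 followed at 17.9 ± 0.66, CHD3 at 14.6 ± 0.68 and CHD1 at 13.7 ± 0.44, and the libraries of the last 2 overlapped. CHD9 stood at 6.20 ± 0.13, CHD2 at 5.87 ± 0.12, CHD6 at 2.99 ± 0.098 and CHD7 at 0.00632 ± 0.0019, and no neighbours other than CHD3 and CHD1 overlapped. The level of CHD4 and SMARCA5 together was 61.4% ± 0.19 of the summed level of the 10 genes in this group and 59.5% ± 0.41, 59.9% ± 0.38 and 60.2% ± 0.50 in the other 3. The summed level was 211 ± 4.52 (DMSO) and 212.6 ± 3.21 (dBRD9-A) CPM per kilobase in GFP cells and 206.4 ± 8.67 (DMSO) and 207.8 ± 0.74 (dBRD9-A) in SMARCB1 cells. With coding length in place of transcript length, CHD4 and SMARCA5 were level at 102.1 and 101.9 CPM per kilobase in GFP cells in DMSO, and SMARCA5 ranked first in the other 3 groups.

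By transcript length, the order of the middle ranks differed with SMARCB1. In SMARCB1 cells in DMSO, CHD8 at 19.95 ± 1.09 CPM per kilobase stood above SMARCA1 at 17.8 ± 0.45, and CHD1 at 15.4 ± 0.73 above CHD3 at 12.5 ± 0.64, the reverse of the order of their means in GFP cells. Libraries did not overlap in either pair in SMARCB1 cells, while those of CHD3 and CHD1 overlapped in GFP cells in DMSO. Neither reversal was seen by coding length. On that scale CHD8 stayed below SMARCA1 in SMARCB1 cells in DMSO, at 21.4 and 23.0 CPM per kilobase, and CHD1 was already above CHD3 in GFP cells in DMSO, at 21.6 and 17.4 CPM per kilobase. By transcript length, the libraries of CHD2 and CHD9 overlapped in SMARCB1 cells in DMSO. CHD7 remained last in each of the 4 groups.

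**Figure D1:**
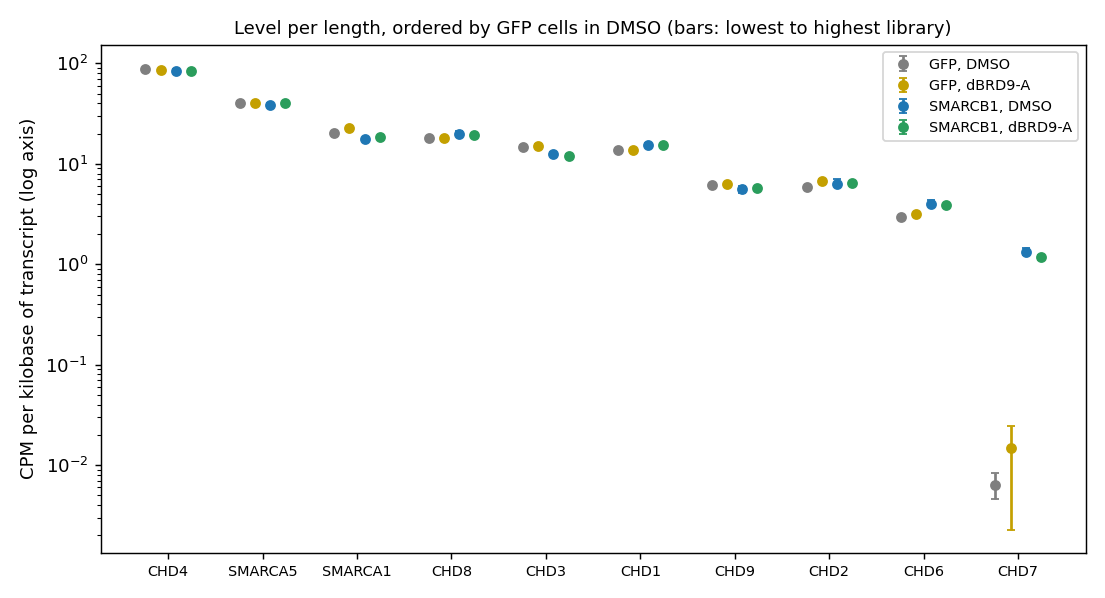
Level of each gene in CPM per kilobase of transcript (log axis) in the 4 groups, ordered by GFP cells in DMSO; points are means of 3 libraries and bars run from the lowest to the highest library. CHD4 leads at 89.0 CPM per kilobase in GFP cells in DMSO, and CHD7 spans from 0.00632 there to 1.32 in SMARCB1 cells in DMSO.

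Over the 4 groups, the members spread very unequally. The range of the group means of log2 CPM was 7.54 for CHD7, which is the 99.5th percentile among tested genes. A gene near the count floor in GFP cells is tested only if it is high elsewhere. The rank of CHD7 thus partly follows from the count filter. It was 0.42 for CHD6 (52.2nd percentile), 0.36 for SMARCA1 and 0.34 for CHD3, and 0.07 for CHD4 and 0.06 for SMARCA5, at the 3.8th and 2.8th percentiles. The 2 genes with the highest levels per transcript length thus had the smallest ranges of the 10.

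SMARCB1 was compared with GFP in DMSO first. CHD7, CHD6, CHD1 and CHD8 were higher in SMARCB1 cells, CHD3, CHD9 and SMARCA1 were lower, and CHD2, CHD4 and SMARCA5 did not pass the test, all relative to the average gene. So 7 of 10 members were called at an adjusted p under 0.05 (edgeR quasi-likelihood test, Benjamini-Hochberg over 15750 genes), 4 higher and 3 lower, beside 65.0% of all tested genes, 33.5% higher and 31.6% lower. The same 7 had libraries that did not overlap between the groups, beside 68.7% of all tested genes. The share of members called is thus near that of all genes. The median size of change, ignoring sign, was 0.16 on the log2 scale for the members and 0.28 for all genes. The same comparison with dBRD9-A in both arms shares no library with the first, and 7 of 10 members were called there too, 4 higher and 3 lower, beside 63.3% of tested genes, 33.0% higher and 30.4% lower. The 7 were the same genes with the same direction, their libraries again did not overlap (66.2% of tested genes), beside 55.1% of tested genes called the same way in both comparisons. In bulk RNA, less RNA per cell and fewer cells that express a gene cannot be told apart.

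**Figure D2:**
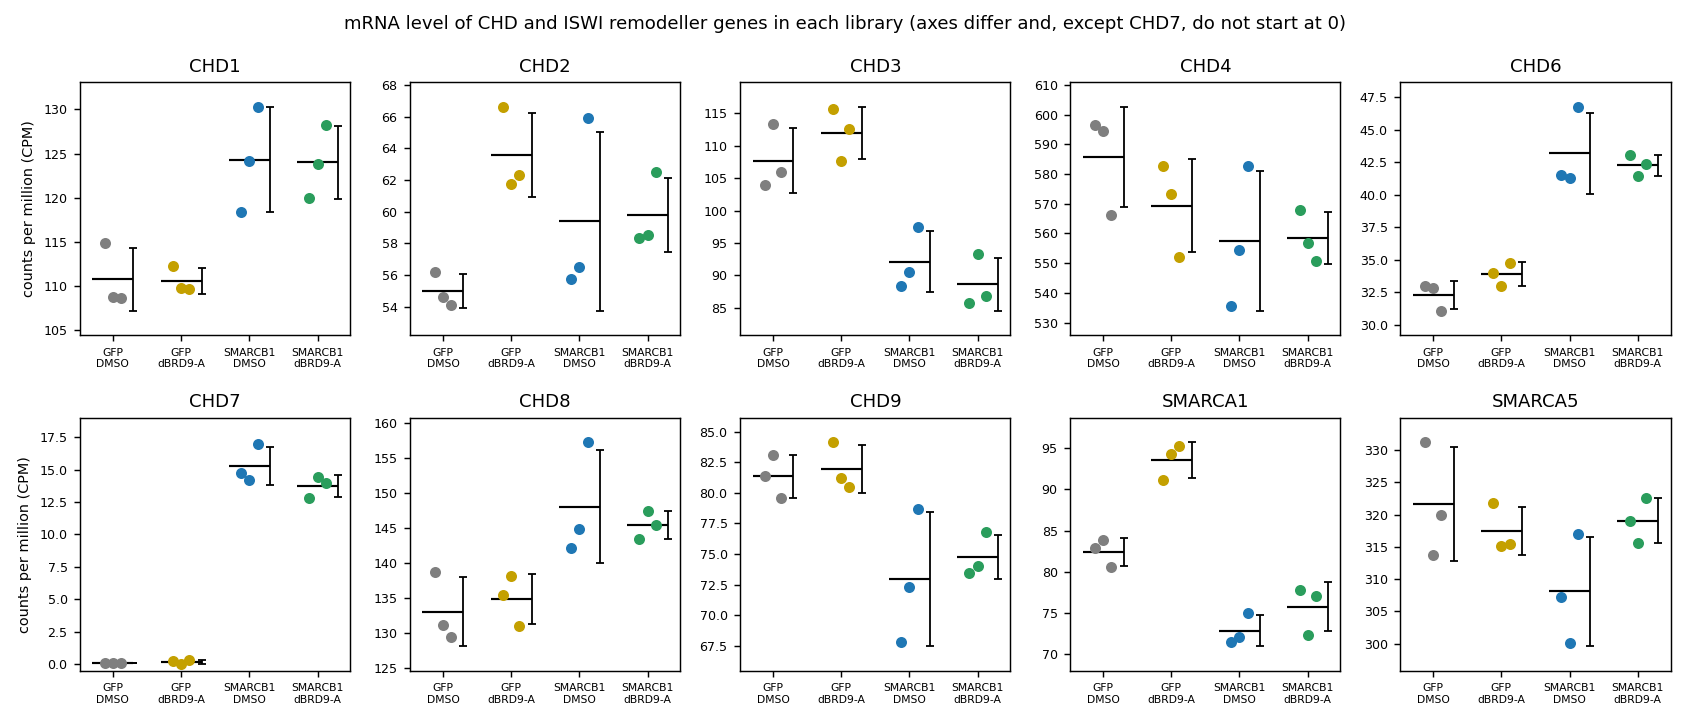
CPM of each gene in every library by group; points are libraries in the order of replicates 1 to 3, black lines are means and bars are 1 SD (n = 3). Axes differ between genes and, except for CHD7, do not start at 0. CHD7 sits between 14.2 and 17.0 CPM in SMARCB1 cells in DMSO and under 0.1 CPM in GFP cells in DMSO.

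CHD7 showed the largest change of the set. In GFP cells in DMSO it had 3, 4 and 4 counts (0.053, 0.097 and 0.069 CPM), and in SMARCB1 cells in DMSO 562, 563 and 987 counts (14.7, 14.2 and 17.0 CPM). With dBRD9-A it had 9, 1 and 10 counts in GFP cells (0.21, 0.026 and 0.28 CPM) and 516, 781 and 601 in SMARCB1 cells (12.8, 14.4 and 14.0 CPM). The GFP libraries were near the 3-count floor, and all 6 SMARCB1 libraries lay far above all 6 GFP libraries. The summed counts, 2112 against 11, gave a ratio of 219-fold in DMSO, with an exact 95% interval of 122 to 440 that covers counting error only. With dBRD9-A they were 1898 against 20, a ratio of 80.2-fold (51.8 to 132). The fitted log2 fold changes were 7.71 (adjusted p = 1.72e-15) and 6.30 (adjusted p = 1.55e-14) by edgeR. The first was 7.62 without replicate 3 of SMARCB1 cells in DMSO (adjusted p = 1.6e-14). The fitted 95% intervals, 152- to 286-fold and 58.4- to 106-fold, are derived from the F statistic. They are narrower than the counting intervals, so they understate the uncertainty of the CHD7 fold. Even in SMARCB1 cells CHD7 was 0.64% of the summed level of the 10 genes.

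CHD6, a relative of CHD7 with a broad expression pattern, was higher as well (chr20:41402101-41618494, minus strand, GRCh38 in GENCODE 29). Its levels were 33.0, 32.8 and 31.1 CPM in GFP cells in DMSO and 41.5, 41.3 and 46.8 CPM in SMARCB1 cells in DMSO, with no overlap. With dBRD9-A they were 34.0, 33.0 and 34.8 CPM in GFP and 43.1, 41.5 and 42.4 CPM in SMARCB1 cells, again apart. The log2 fold change was 0.42 (SE 0.047, adjusted p = 3.27e-07) in DMSO and 0.32 (SE 0.048, adjusted p = 1.47e-05) with dBRD9-A by edgeR. Without replicate 3 of SMARCB1 cells in DMSO the first was 0.36 (adjusted p = 1.29e-06).

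CHD8, which lies at chr14:21385194-21456126 (minus strand), rose by less. Its levels were 138.7, 131.1 and 129.4 CPM in GFP and 142.1, 144.9 and 157.3 CPM in SMARCB1 cells in DMSO, so the groups were separated by a narrow gap. With dBRD9-A they were 135.4, 138.1 and 131 CPM in GFP and 143.5, 147.5 and 145.5 CPM in SMARCB1 cells. This amounted to a log2 fold change of 0.15 (SE 0.037, edgeR adjusted p = 0.00135) in DMSO and 0.11 (SE 0.037, edgeR adjusted p = 0.0164) with dBRD9-A. The latter call was lost without replicate 3 of GFP cells with dBRD9-A (adjusted p = 0.084) or replicate 2 of SMARCB1 cells with dBRD9-A (adjusted p = 0.0509). The former was 0.11 without replicate 3 of SMARCB1 cells in DMSO (adjusted p = 0.0117).

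CHD9, the last of this subfamily (chr16:53055033-53329150, plus strand), went the other way. It stood at 81.4, 83.1 and 79.6 CPM in GFP and 67.8, 72.3 and 78.7 CPM in SMARCB1 cells in DMSO, with the highest SMARCB1 library just under the lowest GFP library. With dBRD9-A it stood at 84.1, 81.2 and 80.5 CPM in GFP and 73.5, 74.0 and 76.8 CPM in SMARCB1 cells. The log2 fold change was -0.15 (SE 0.042, edgeR adjusted p = 0.00417) in DMSO and -0.13 (SE 0.043, edgeR adjusted p = 0.0119) with dBRD9-A. The latter lost its call without replicate 1 of GFP cells with dBRD9-A (adjusted p = 0.0502), and the former was -0.21 without replicate 3 of SMARCB1 cells in DMSO (adjusted p = 9.44e-05). Of the 4 genes of this subfamily, 3 were thus higher and 1 lower in both comparisons. Of all tested genes 65.0% were called in DMSO, 33.5% higher and 31.6% lower, and 63.3% with dBRD9-A, 33.0% higher and 30.4% lower. With spike-in scaling, described further on, 3 of the 4 were called higher and 0 lower in DMSO, beside 43.4% and 16.4% of all genes. With dBRD9-A 1 was called higher and 2 lower, beside 13.5% and 57.4% of all genes.

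CHD1, which reads histone H3 trimethylated at lysine 4 with its chromodomains, was higher in SMARCB1 cells (chr5:98853985-98928957, minus strand). Its levels were 114.9, 108.8 and 108.6 CPM in GFP and 118.4, 124.2 and 130.3 CPM in SMARCB1 cells in DMSO, without overlap. With dBRD9-A they were 112.3, 109.8 and 109.6 CPM in GFP and 120, 123.8 and 128.2 CPM in SMARCB1 cells. As a log2 fold change this was 0.17 (SE 0.036, edgeR adjusted p = 0.000505) in DMSO and 0.17 (SE 0.036, edgeR adjusted p = 0.000648) with dBRD9-A, or 1.12-fold in each. Without replicate 3 of SMARCB1 cells in DMSO the first was 0.13 (adjusted p = 0.00489). CHD2 (chr15:92900189-93028005, plus strand), its paralogue, overlapped between the groups at 56.2, 54.6 and 54.1 CPM in GFP and 55.8, 56.5 and 65.9 CPM in SMARCB1 cells in DMSO. Its log2 fold change was 0.12 (95% interval 0.005 to 0.23, edgeR adjusted p = 0.0632), and it passed the test without replicate 1 (0.16, adjusted p = 0.019) or replicate 2 (0.15, adjusted p = 0.0299) of SMARCB1 cells in DMSO and was 0.03 without replicate 3 (adjusted p = 0.568). It was -0.09 with dBRD9-A (95% interval -0.20 to 0.02, edgeR adjusted p = 0.153), and it was called only in the leave-one-out fit that dropped replicate 3 of SMARCB1 cells in DMSO (-0.09, adjusted p = 0.0391).

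CHD3 and CHD4 are used one at a time in NuRD, and the less abundant one moved. CHD3 (chr17:7884806-7912760, plus strand) stood at 103.9, 113.3 and 105.9 CPM in GFP and 88.3, 90.6 and 97.4 CPM in SMARCB1 cells in DMSO. With dBRD9-A it stood at 115.7, 107.7 and 112.5 CPM in GFP and 85.8, 93.3 and 86.8 CPM in SMARCB1 cells. In both comparisons every SMARCB1 library lay below every GFP library. CHD3 had a log2 fold change of -0.22 (SE 0.043, edgeR adjusted p = 0.000215) in DMSO and -0.34 (SE 0.044, edgeR adjusted p = 2.83e-06) with dBRD9-A, and the first was -0.27 without replicate 3 of SMARCB1 cells in DMSO (adjusted p = 6.72e-05). CHD4 (chr12:6570082-6614524, minus strand) overlapped at 596.5, 594.5 and 566.2 CPM in GFP and 535.7, 554.4 and 582.6 CPM in SMARCB1 cells in DMSO. Its log2 fold change was -0.07 (95% interval -0.14 to -0.002, edgeR adjusted p = 0.0679), and it passed the test without replicate 3 of GFP cells in DMSO (-0.10, adjusted p = 0.0278) or replicate 3 of SMARCB1 cells in DMSO (-0.10, adjusted p = 0.0114). The CHD4 change with dBRD9-A in both arms was -0.03 (95% interval -0.10 to 0.04, edgeR adjusted p = 0.484). CHD3 overlaps NAA38 on the other strand in GENCODE 29 and CHD4 the gene model AC006064.6 on its own strand, so reads there could be divided differently by another counting. The same holds for CHD2, which overlaps the protein-coding model AC013394.1, and for CHD5, which overlaps AL031847.2, each on its own strand.

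Of the ISWI ATPases, SMARCA1 was lower and SMARCA5 did not pass the test. SMARCA1 (chrX:129446501-129523500, minus strand) is the ATPase of human NURF. It stood at 82.9, 83.9 and 80.6 CPM in GFP and 71.5, 72.0 and 75.0 CPM in SMARCB1 cells in DMSO. With dBRD9-A it stood at 91.1, 94.3 and 95.3 CPM in GFP and 77.8, 72.4 and 77.1 CPM in SMARCB1 cells. The groups were apart in both comparisons, and the gap was wider with dBRD9-A, where the GFP libraries were higher. The log2 fold change was -0.18 (SE 0.034, edgeR adjusted p = 0.000169) in DMSO and -0.31 (SE 0.034, edgeR adjusted p = 3.87e-07) with dBRD9-A, and the first was -0.20 without replicate 3 of SMARCB1 cells in DMSO (adjusted p = 0.000213). SMARCA5 (chr4:143513463-143557486, plus strand), the widely expressed ISWI ATPase of ACF, CHRAC, RSF and WICH, overlapped at 331.2, 313.7 and 320 CPM in GFP and 307.2, 300.1 and 317 CPM in SMARCB1 cells in DMSO. Its log2 fold change was -0.06 (95% interval -0.12 to -0.003, edgeR adjusted p = 0.0626), and it passed the test without replicate 2 of GFP cells in DMSO (-0.08, adjusted p = 0.0313) or replicate 3 of SMARCB1 cells in DMSO (-0.08, adjusted p = 0.0252). It was 0.01 with dBRD9-A (95% interval -0.05 to 0.07, edgeR adjusted p = 0.845), an interval that holds changes of up to 1.05-fold.

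**Figure D3:**
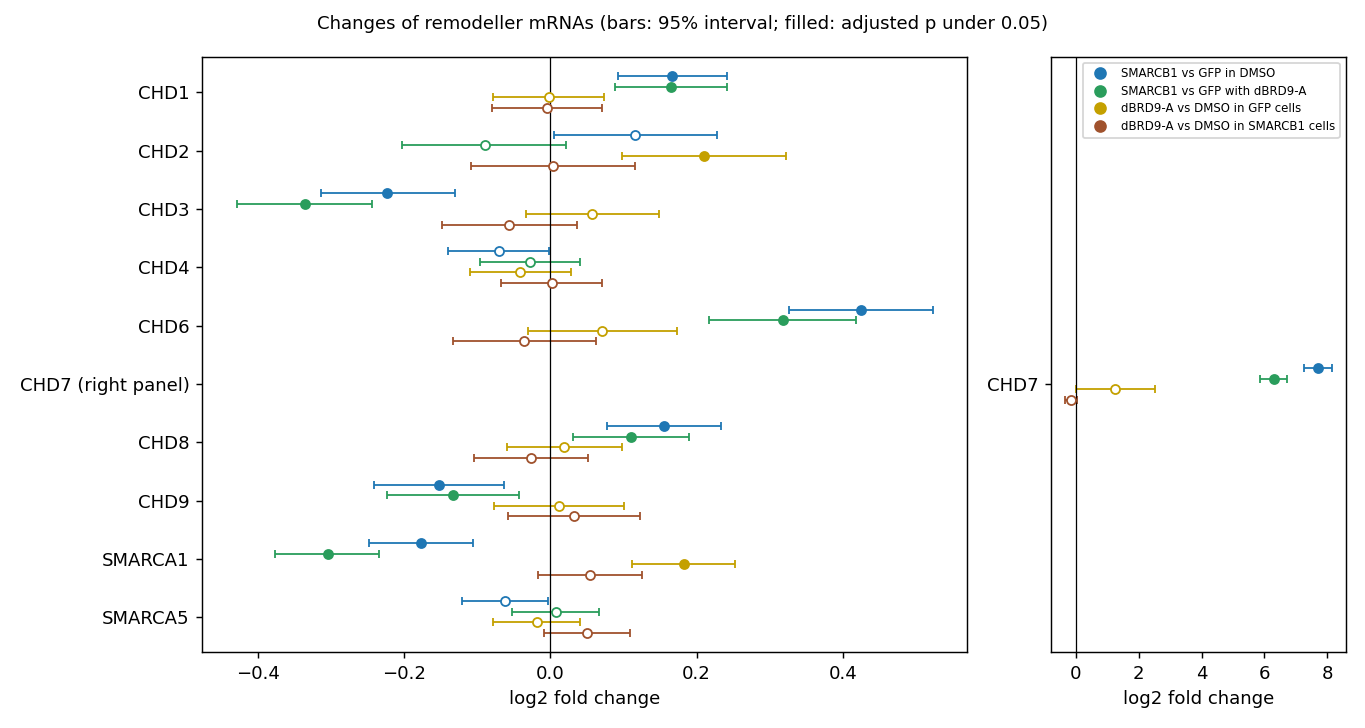
Log2 fold change of each gene in 4 comparisons with its 95% interval (trimmed mean scaling). Filled points have an adjusted p under 0.05, and CHD7 has its own axis. The CHD7 intervals for SMARCB1 are narrower than those from counting error alone. With SMARCB1, CHD1, CHD6, CHD7 and CHD8 lie right of 0 and CHD3, CHD9 and SMARCA1 left of it in both comparisons, and with dBRD9-A only CHD2 and SMARCA1 in GFP cells are filled. With spike-in scaling CHD1, CHD6 and CHD8 fall left of 0 in the SMARCB1 comparison with dBRD9-A and CHD9 right of 0 in that in DMSO.

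The direction of the small changes depended on how libraries were made comparable. Scaling by the ERCC spike-in RNAs, synthetic transcripts that made up 0.963% to 1.302% of a library's counts, shifted the median of all genes by 0.17 on the log2 scale for SMARCB1 against GFP in DMSO and by -0.32 with dBRD9-A. With that scaling 5 members were called higher and 0 lower in DMSO (CHD1, CHD2, CHD6, CHD7 and CHD8), beside 43.4% and 16.4% of all genes. With dBRD9-A only CHD7 was called higher and 8 were called lower, beside 13.5% and 57.4% of all genes. CHD7 kept its rise at 7.88 and 5.97. CHD1 went from 0.17 to -0.16 (adjusted p = 0.0278) and CHD8 from 0.11 to -0.22 (adjusted p = 0.00464) with dBRD9-A. CHD3 and SMARCA1 were lower there under both scalings, at -0.67 and -0.63 with spike-ins, but were -0.06 (adjusted p = 0.529) and -0.01 (adjusted p = 0.924) in DMSO, where CHD9 was 0.015 (adjusted p = 0.875). How the spike-ins were added is not given in the sources used here, so changes of single members other than CHD7 are relative to the average gene.

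**Figure D4:**
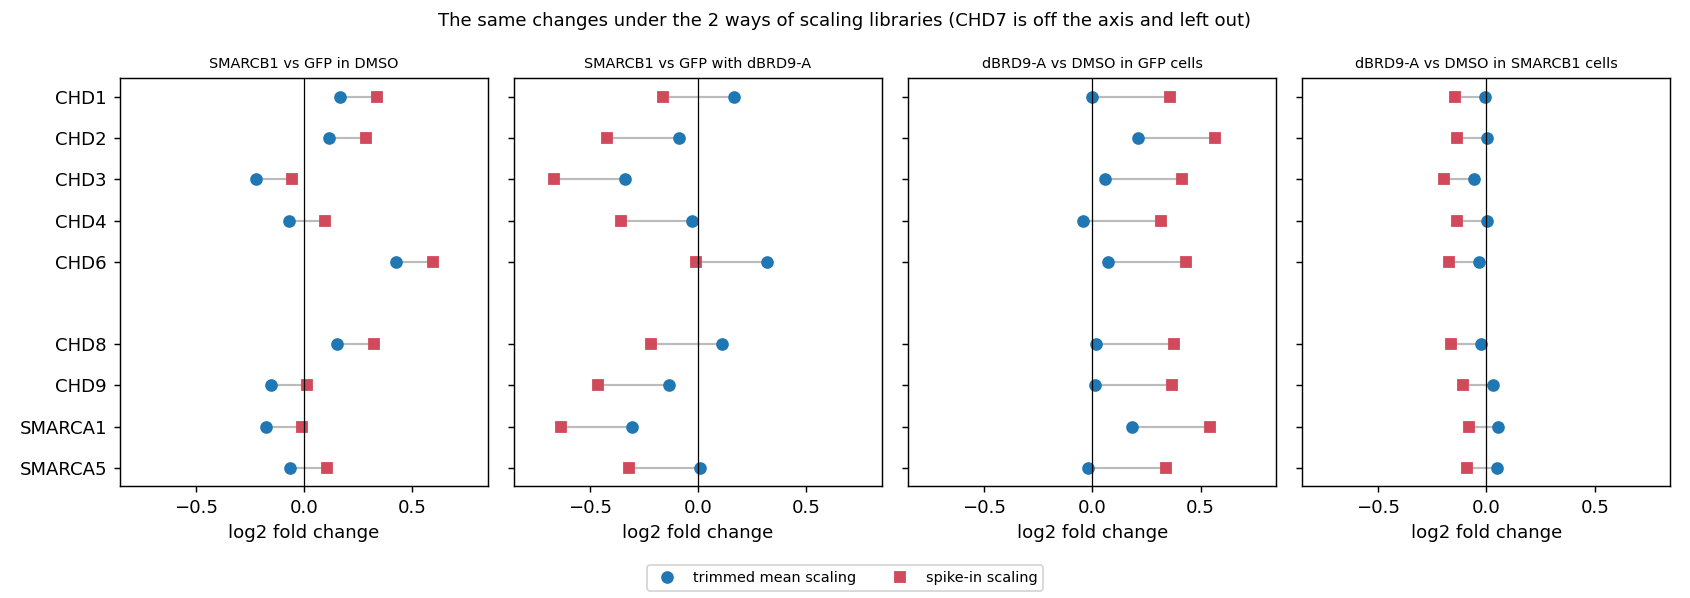
Log2 fold change of 9 members (CHD7 is off the axis) under trimmed mean scaling (circles) and spike-in scaling (squares) in 4 comparisons. In each comparison all 9 shift the same way, to the right for SMARCB1 against GFP in DMSO and for dBRD9-A in GFP cells and to the left in the other 2.

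Ratios of related members within a library do not depend on any scaling of libraries. The ratio of CHD6 to CHD9 counts was 0.406, 0.395 and 0.390 in GFP cells in DMSO and 0.612, 0.571 and 0.594 in SMARCB1 cells in DMSO. With dBRD9-A it was 0.404, 0.406 and 0.432 in GFP and 0.586, 0.560 and 0.551 in SMARCB1 cells. No SMARCB1 library overlapped a GFP library. The mean log2 difference over both treatments was 0.51 for CHD6/CHD9, 0.28 for CHD8/CHD9, -0.23 for CHD3/CHD4 and -0.21 for SMARCA1/SMARCA5, each with p = 0.005, which is the smallest that the 400 arrangements of an exact two-sided permutation test over libraries within each treatment can give (adjusted over 5 ratios, p = 0.00625). CHD1/CHD2 differed by 0.16 (exact permutation p = 0.02, adjusted p = 0.02), with 0.06 in DMSO and 0.25 with dBRD9-A. In these libraries the count ratio was lower with SMARCB1 for CHD3/CHD4 and SMARCA1/SMARCA5 and higher for CHD6/CHD9 and CHD8/CHD9. Leaving out any 1 library kept the sign and an exact p of at most 0.035 for all 5. These ratios were chosen after the members' changes had been seen, so their p values describe those changes and are no separate support. Ratios of other gene pairs are not given.

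The effect of dBRD9-A in GFP cells, which lack SMARCB1, was small for these genes. CHD2 and SMARCA1 were higher with dBRD9-A, and the other 8 members did not pass the test. That is 2 of 10 members, beside 15.9% of tested genes called, 7.43% higher and 8.47% lower. The libraries of these 2 members were also the ones that did not overlap, beside 34.0% of all tested genes. CHD2 went from 56.2, 54.6 and 54.1 CPM to 66.6, 61.8 and 62.3 CPM, without overlap, a log2 fold change of 0.21 (SE 0.053, edgeR adjusted p = 0.0113). It lost its call without replicate 1 of GFP cells with dBRD9-A (0.17, adjusted p = 0.0726). SMARCA1 went from 82.9, 83.9 and 80.6 CPM to 91.1, 94.3 and 95.3 CPM, also without overlap, a log2 fold change of 0.18 (SE 0.033, edgeR adjusted p = 0.000997). All 12 fits that each left out 1 library, of the groups compared or of the others, kept this call. The ratio of SMARCA1 to SMARCA5 counts moved with it, from 0.250, 0.268 and 0.252 to 0.283, 0.299 and 0.302. CHD7 had a log2 fold change of 1.25 (95% interval -0.003 to 2.50, edgeR adjusted p = 0.18) on 11 against 20 counts in all, and passed the test without replicate 2 of GFP cells with dBRD9-A, the library with 1 count (1.74, adjusted p = 0.0245). The other 7 members lay between -0.04 (CHD4) and 0.07 (CHD6). With spike-in scaling, which shifted the median of all genes by 0.36, all 10 members were higher, beside 70.4% of all genes.

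In SMARCB1 cells, dBRD9-A changed none of the 10 at an adjusted p under 0.05 by edgeR. There were 0 at an unadjusted p under 0.05 and 0 by DESeq2, beside 1.93% of tested genes called, 12.7% at an unadjusted p under 0.05 and 2.16% by DESeq2. CHD7 stood at 14.7, 14.2 and 17.0 CPM in DMSO and 12.8, 14.4 and 14.0 CPM with dBRD9-A, and its log2 fold change was -0.16 (95% interval -0.36 to 0.05, adjusted p = 0.543). Without replicate 3 of the DMSO group it was -0.07 (adjusted p = 0.887). CHD2 was at 0.004 (95% interval -0.11 to 0.12), SMARCA1 at 0.05 (95% interval -0.02 to 0.13) and SMARCA5 at 0.05 (95% interval -0.01 to 0.11). Without that library they were 0.089 (adjusted p = 0.465), 0.075 (adjusted p = 0.51) and 0.07 (adjusted p = 0.414), and again 0 members were called. No member's libraries separated the groups, beside 16.9% of all tested genes. With spike-in scaling 0 members were called here, beside 5.54% of all genes, and the median of all genes shifted by -0.14.

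The difference between the dBRD9-A effects in SMARCB1 and GFP cells was itself tested. No member passed at an adjusted p under 0.05 by edgeR, 0 passed by DESeq2, beside 3.80% of tested genes by edgeR and 3.96% by DESeq2. At an unadjusted p under 0.05 there were 3 members, CHD2, CHD7 and SMARCA1, beside 15.9% of tested genes. The differences were -0.21 for CHD2 (adjusted p = 0.167), -1.41 for CHD7 (adjusted p = 0.256) and -0.13 for SMARCA1 (adjusted p = 0.178). So the rise of CHD2 and SMARCA1 in GFP cells is not shown to differ from the change in SMARCB1 cells. Without replicate 2 of GFP cells with dBRD9-A the CHD7 difference passed (-1.90, adjusted p = 0.0439). With spike-in scaling, which moved the median of all genes by -0.49, all 10 members passed as lower, beside 71.1% of all genes.

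The partners that the ATPases act with were counted from lists set by name, with earlier results of these data known. Each list moved in both directions. Over all tested genes 65.0% were called in DMSO, 33.5% higher and 31.6% lower, and 63.3% with dBRD9-A, 33.0% higher and 30.4% lower. Of 12 NuRD partners, 9 were called for SMARCB1 against GFP in DMSO, 5 higher and 4 lower, with a median log2 fold change of -0.04 beside -0.005 for all genes. RBBP4, a histone chaperone, was lower by -0.42 (adjusted p = 6.01e-10), and MBD2, which binds methylated DNA, was higher at 0.39 (adjusted p = 3.4e-09). With dBRD9-A 7 were called, 3 higher and 4 lower, among them MBD2 at 0.41 (adjusted p = 3.03e-09) and MTA1 at -0.37 (adjusted p = 9.9e-07), beside a median of 0.01 for the list and 0.01 for all genes. MBD2 kept its sign with spike-ins in that comparison but not its call (0.08, adjusted p = 0.291).

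Of 10 ISWI partners, 6 were called in DMSO, 5 higher and 1 lower (65.0% of all tested genes), with a median of 0.16. The largest rises were CECR2, the partner in CERF, at 0.85 (adjusted p = 5.43e-09), and BAZ1A, the ACF1 subunit of ACF and CHRAC, at 0.67 (adjusted p = 1.81e-10). With dBRD9-A 8 were called, 5 higher and 3 lower (63.3% of all tested genes), with a median of 0.03, and CECR2 stood at 0.75 (adjusted p = 4.61e-08) and BAZ2B at 0.50 (adjusted p = 1.64e-06, and 0.18 with adjusted p = 0.053 under spike-in scaling). Of the 7 partners in the list of ChAHP, in which CHD4 works with ADNP and HP1, and of FACT, which binds CHD1, 5 were called in each comparison, 2 higher and 3 lower, beside 65.0% and 63.3% of all tested genes. The medians were -0.001 in DMSO and -0.05 with dBRD9-A. POGZ was at 0.38 (adjusted p = 7.63e-06) and 0.27 (adjusted p = 0.000367), but at -0.06 with spike-ins in the latter (adjusted p = 0.528). CBX5, which encodes HP1 alpha, was at -0.35 (adjusted p = 1.01e-06) and -0.34 (adjusted p = 1.33e-06).

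The other remodeller families were mixed too. Of 16 genes of the INO80 and SRCAP group, 7 were called in DMSO, 3 higher and 4 lower (median -0.01), and 6 with dBRD9-A, 3 in each direction (median -0.04), beside 65.0% and 63.3% of all tested genes. INO80B stood at -0.50 (adjusted p = 2.2e-06) and -0.43 (adjusted p = 1.53e-05), DMAP1 at 0.31 (adjusted p = 0.000246) in DMSO and INO80D at -0.37 (adjusted p = 0.00227) with dBRD9-A. Of 14 other SNF2 ATPases, 11 were called in DMSO, 6 higher and 5 lower (median 0.03), and 10 with dBRD9-A, 5 in each direction (median -0.01), beside the same shares of all genes. HLTF, a translocase of replication fork repair, stood at -0.62 (adjusted p = 2.43e-13) and -0.71 (adjusted p = 4.9e-14). SMARCA2, the alternative SWI/SNF ATPase, had 0 to 1 counts in GFP libraries, 12 to 14 in SMARCB1 cells in DMSO and 7 to 14 in SMARCB1 cells with dBRD9-A. Like CHD7, SMARCA2 passed the count filter only through SMARCB1 cells. Its summed counts, 39 against 1 and 34 against 1, gave ratios of 44.6-fold (exact 95% interval 7.54 to 1805) and 28.7-fold (4.82 to 1168). With spike-ins the genes called in DMSO were 5 higher and 2 lower for NuRD, 5 and 1 for ISWI partners and 4 and 1 for ChAHP and FACT. For INO80 and SRCAP they were 8 and 2, and for the other ATPases 8 and 4. With dBRD9-A the same splits, in this order, were 0 and 10, 2 and 6, 0 and 5, 0 and 14 and 1 and 11. Over all genes 43.4% were higher and 16.4% lower with spike-ins in DMSO, and 13.5% higher and 57.4% lower with dBRD9-A. With trimmed mean scaling, 10245 of 15750 tested genes were called for SMARCB1 against GFP in DMSO. Fits that each left out 1 library called 9574 to 10419. The number of each single fit is not given here. A general change in calls therefore cannot be told apart from a change particular to the lists. Without replicate 3 of SMARCB1 cells in DMSO, and with trimmed mean scaling, the counts called in DMSO were 7 for NuRD, 7 for ISWI partners, 5 for ChAHP and FACT, 8 for INO80 and SRCAP and 10 for the other ATPases. The genes named for that comparison kept their direction and call without it, with RBBP4 at -0.44, MBD2 at 0.39, CECR2 at 0.82, BAZ1A at 0.65, POGZ at 0.36, CBX5 at -0.40, INO80B at -0.45, DMAP1 at 0.34, HLTF at -0.62 and SMARCA2 at 5.13.

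**Figure D5:**
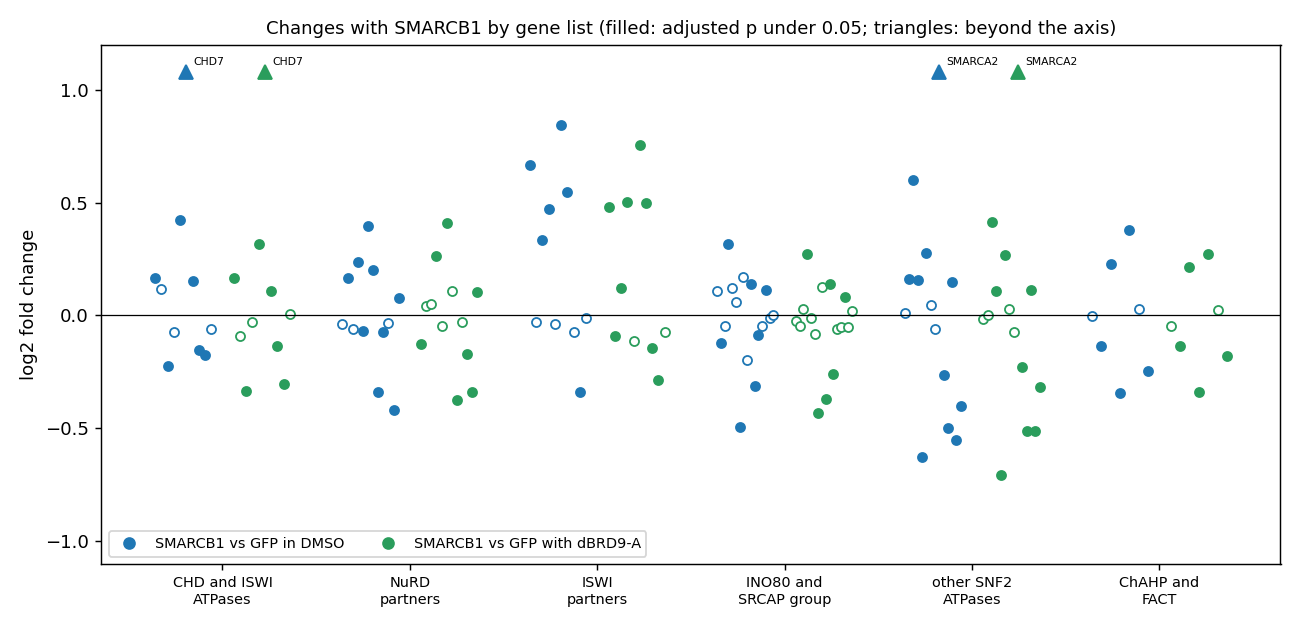
Log2 fold change (trimmed mean scaling) of each gene of the 5 partner lists and of the 10 ATPases for SMARCB1 against GFP in DMSO (blue) and with dBRD9-A (green); filled points have an adjusted p under 0.05 and triangles lie beyond the axis. Each list has filled points on both sides of 0, and CHD7 and SMARCA2 lie above 1; with spike-ins in dBRD9-A 3 of the 5 lists have no higher gene.

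With dBRD9-A in GFP cells, 3 of 12 NuRD partners, 1 of 10 ISWI partners, 2 of 16 INO80 and SRCAP genes, 2 of 14 other SNF2 ATPases and 0 of 7 ChAHP and FACT genes were called by edgeR, beside 15.9% of all tested genes. Of the 7, 1 passed at an unadjusted p under 0.05, and DESeq2 called 1. BAZ1A was at 0.20 (adjusted p = 0.00348) and INO80 at 0.16 (adjusted p = 0.00559). The other named genes were close to the threshold: MBD3 at 0.20 (adjusted p = 0.019), MTA3 at 0.16 (adjusted p = 0.0138), ACTR6 at -0.14 (adjusted p = 0.0355), CHD1L at 0.20 (adjusted p = 0.0495) and SMARCAL1 at 0.12 (adjusted p = 0.0471). Of 12 fits that each left out 1 library, 5 lost MBD3, 2 lost MTA3, 4 lost ACTR6, 7 lost CHD1L and 6 lost SMARCAL1. The lost calls had adjusted p from 0.0503 to 0.172. ACTR6 was 0.22 with spike-in scaling. In SMARCB1 cells with dBRD9-A, and for the difference between the dBRD9-A effects, no gene of the 5 lists was called by edgeR or by DESeq2. At an unadjusted p under 0.05 there were 4 and 7 of the 59 genes, beside 12.7% and 15.9% of all tested genes, while 1.93% and 3.80% of all were called.

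The genes whose pattern was most like that of CHD7 over the 12 libraries were SCUBE3 (Pearson r of log2 CPM 0.996), RIC1 (0.995) and MAP3K8 (0.994). SCUBE3 stood at 0.223 ± 0.047 CPM in GFP and 2.51 ± 0.41 CPM in SMARCB1 cells in DMSO, and MAP3K8 at 1.06 ± 0.069 and 7.61 ± 0.17 CPM (SD, n = 3). RIC1 went from 51.9 ± 1.33 to 73.8 ± 1.62 CPM, a far smaller step than that of CHD7. For CHD6 they were ASPM (0.988), ABAT (0.986) and DCAF6 (0.985). In all, 2936 tested genes had r over 0.9 with CHD7 and 2488 with CHD6. The 12 libraries fall into SMARCB1 and GFP states, and all genes of a library share its depth and scaling, so these values are a description.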

How the data were processed

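RNA of 12 G401 libraries was sequenced after a stranded mRNA library kit, per the labels' protocols. The deposited values are expected counts per gene, made by the authors with STAR and RSEM 1.3.1 on GRCh37 (hg19), per the submitters' processing notes, which also name DESeq2. RSEM divides reads shared between genes, the use of strand in counting is not given in the sources used here, and coordinates printed are GRCh38 from GENCODE 29 or RefSeq. The 3 tables repeat 6 columns with identical values. Expected counts were rounded, 40 ERCC spike-in identifiers were left out, and 51996 of 57820 identifiers matched a symbol.

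Genes passing filterByExpr (minimum count 10) were fitted in R 4.3.3 with edgeR 4.0.16, with TMM factors of 0.977 to 1.02 and 1 coefficient per group over all 12 libraries. Contrasts with a Benjamini-Hochberg adjusted p under 0.05 over 15750 genes were called. Adjusted p values are from this test unless another is named, and SE denotes the standard error of a log2 fold change. On data simulated for SMARCB1 against GFP in DMSO over 15750 genes, 46%, 76%, 90% and 96% of 50 genes each changed by 1.2-, 1.5-, 2- and 4-fold were recovered, and 16 unchanged genes were called. Far fewer genes changed there than the 65.0% called in the real comparison, so these shares do not carry over to it. Called changes such as those of CHD1 and CHD8 in DMSO, 1.12- and 1.11-fold, lie below the smallest simulated fold. Alternatives were DESeq2 1.42.0 and its size factors, upper-quartile and spike-in scaling, no count filter, an adjusted p under 0.01, only the groups compared, a replicate block, coding length and leaving out each library.

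The text names all 10 members, SMARCB1, BRD9 and CHD5, per partner list and contrast the called genes with the 2 largest changes, and the 3 genes most correlated with the 2 members of largest range. The members and lists were chosen with earlier results of these data known. Nothing says that replicates are separate cultures, so p values measure the spread between these libraries, which may be technical. PECAM1, a further marker, was not matched.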

Additional observations from a re-analysis of the deposited data

How the results depend on the processing

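Of 16 called values of members, all kept direction and call with DESeq2, its size factors, upper-quartile scaling, no count filter, only the groups compared and the replicate block. With spike-ins 10 kept both, 2 lost the call and 4 changed sign, and an adjusted p under 0.01 ended 3 calls. Of 192 fits without 1 library 188 kept the call. Many of these fits left out a library outside the groups compared, and the 4 that lost it left out one inside them. Other values gained a call. For SMARCB1 in DMSO members called went from 7 to 9 with upper-quartile scaling (CHD4 adjusted p = 0.0417, SMARCA5 adjusted p = 0.0363) and to 9 without a count filter (CHD2 adjusted p = 0.0239, CHD4 adjusted p = 0.024), and with dBRD9-A from 7 to 8 with only the groups compared (CHD2 adjusted p = 0.0491). The share of all genes called under these settings is not given here. A general change in calls therefore cannot be told apart from a change particular to the members. Members called with dBRD9-A in GFP cells went from 2 to 10 with spike-ins, 1 at an adjusted p under 0.01 and 1 to 3 without 1 library. Over all genes the number called went from 2504 to 11310, 1411 and 1776 to 2798 in the same order. For the difference between the dBRD9-A effects, members called went from 0 to 10 with spike-ins, 1 (CHD2) without a count filter and 0 to 1 without 1 library. Over all genes that number went from 598 to 11270 with spike-ins and 422 to 861 without 1 library. Without a count filter it is not given here. The spike-ins' part was not tested further.

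Values that changed sign with spike-ins were, for SMARCB1 in DMSO, CHD4 (0.10), CHD9 (0.015) and SMARCA5 (0.11), and with dBRD9-A CHD1 (-0.16), CHD6 (-0.01), CHD8 (-0.22), SMARCA5 (-0.32) and POGZ (-0.058). For dBRD9-A they were CHD1 (0.357), CHD4 (0.32), SMARCA5 (0.341) and ACTR6 (0.22) in GFP cells, CHD2 (-0.135), CHD4 (-0.134), CHD9 (-0.106), SMARCA1 (-0.081) and SMARCA5 (-0.087) in SMARCB1 cells, and CHD4 (-0.451), CHD9 (-0.475) and SMARCA5 (-0.428) for the difference. Values near 0 changed sign elsewhere. SMARCA5 for SMARCB1 with dBRD9-A was -0.001 with upper-quartile scaling and -0.002 with only the groups compared. CHD1 for dBRD9-A in GFP cells was 0.002 with only the groups compared, and for the difference 0.01 without a count filter. In SMARCB1 cells with dBRD9-A, CHD2 was -0.002 with DESeq2 size factors, and CHD4 was -0.003 with them, -0.004 with DESeq2 and -0.001 with only the groups compared. Without 1 library, SMARCA5 for SMARCB1 with dBRD9-A ran from -0.009 to 0.013. For dBRD9-A in GFP cells CHD1 ran from -0.015 to 0.025, CHD9 from -0.007 to 0.027 and SMARCA5 from -0.037 to 0.003. In SMARCB1 cells CHD1 ran from -0.037 to 0.03, CHD2 from -0.039 to 0.089, CHD4 from -0.025 to 0.033, CHD6 from -0.068 to 0.028, CHD8 from -0.055 to 0.018 and CHD9 from -0.016 to 0.092. For the difference CHD1 ran from -0.035 to 0.032 and CHD9 from -0.029 to 0.078.

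Genes called for dBRD9-A in GFP cells, in SMARCB1 cells and for the difference went from 2504, 304 and 598 to 11310, 873 and 11270 with spike-ins and to 1411, 144 and 305 at an adjusted p under 0.01. In SMARCB1 cells they were 625 without a count filter, 159 with only the groups compared and 169 to 420 without 1 library. The replicate numbers did not pair the libraries: deviations of 18 same-number pairs correlated at -0.0496 to 0.0772, and 3 of 12 libraries correlated best with their own number. With the replicate block members called were 7, 7, 2, 0 and 0, as without it, and CHD1L (adjusted p = 0.0625) and SMARCAL1 (adjusted p = 0.0706) lost their calls with dBRD9-A in GFP cells. The share of all genes called with the block is not given here. CHD7 in GFP libraries lay near the count floor, which limits its fold.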

Other observations

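CHD5, the CHD gene outside the set and a relative of CHD3 and CHD4 best known from the nervous system, moved against CHD7. It stood at 8.32, 8.87 and 8.66 CPM in GFP cells in DMSO and at 1.67, 1.34 and 1.41 CPM in SMARCB1 cells in DMSO, with no overlap. With dBRD9-A it stood at 12.01, 9.85 and 11.83 CPM in GFP and 2.34, 1.62 and 1.44 CPM in SMARCB1 cells. The log2 fold change for SMARCB1 was -2.55 (SE 0.14, edgeR adjusted p = 1.77e-11) in DMSO and -2.65 (SE 0.13, edgeR adjusted p = 6.02e-12) with dBRD9-A. Without replicate 3 of SMARCB1 cells in DMSO the first was -2.52 (adjusted p = 8.17e-10). For dBRD9-A it was 0.38 in GFP cells (SE 0.11, edgeR adjusted p = 0.0184). Per transcript length CHD5 lay between CHD6 and CHD7 in GFP cells, at 0.893 CPM per kilobase in DMSO, and below CHD7 in SMARCB1 cells, at 0.153 against 1.32.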
